A study of Mus musculus with 20 samples.

Results

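The colony stimulating factors and their receptors were followed in the mouse diaphragm after asbestos or carbon nanotubes had been placed in the pleural cavity. The set holds 8 genes, namely the ligands Csf1, Il34, Csf2 and Csf3 and the receptor chains Csf1r, Csf2ra, Csf2rb and Csf3r. The members were chosen by name, and all probes that the array files assign to these names were taken, which gave 14 of 55681 probes. Of these, 12 passed the detection limit, a spot well above background on 4 or more arrays, and were tested, among 36920 tested probes in all. Each gene was represented by its brightest probe, the one with the highest mean over the 20 arrays. By that probe 7 of the 8 genes were tested, among 25482 genes, and Csf3 was not.

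The animals were female C57Bl/6 mice aged 8 weeks, and each of the 5 groups held 4 mice. A single injection into the pleural space delivered either the vehicle alone (control, bovine serum albumin in saline), 25 μg of short amosite asbestos (SFA), 25 μg of amosite asbestos enriched in long fibers (LFA), 5 μg of short carbon nanotubes (NTS) or 5 μg of long carbon nanotubes (NTL). SFA was made by milling long fibers of the same batch, so that LFA and SFA share their mineral. Every mouse, control mice included, had the pleural injection, and the diaphragm was taken 12 weeks later. Asbestos and nanotubes differed in dose as well as in material, so long and short fibers were compared within each material. The short nanotubes were a commercial product, and the long ones came from a university laboratory. NTL and NTS therefore differ in source as well as in length. A length effect below means the difference of the long from the short group of a material.

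Csf1 and Il34 are the ligands of the receptor tyrosine kinase Csf1r, which macrophages and their precursors need to survive and grow. Csf2, or GM-CSF, binds the specific chain Csf2ra, which then pairs with the shared chain Csf2rb to signal through Jak2 and Stat5 in macrophages, dendritic cells and granulocytes. Csf3, or G-CSF, and its receptor Csf3r govern the production and release of neutrophils.

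Levels are log2 intensities relative to the 75th percentile of the same array, so that 0 is the 75th percentile and a difference of 1 is 2-fold. A gene was called when it differed by at least 2-fold with an adjusted p under 0.05 in limma, adjusted over all tested probes. The labels do not say which mice shared a cage or an extraction, so p-values measure the spread between these mice. Between 53.0% and 68.1% of spots were well above background on an array, 0 spots were saturated, and arrays correlated with each other at r = 0.86 to 0.99. The skeletal muscle markers checked (Acta1, Ckm and 5 others) were well above background on every array, as the label diaphragm requires, whereas their summed linear level was 2703 to 3941 in control, 1337 to 1888 in LFA and 1148 to 1552 in NTL. Over all 36920 tested probes the median change was −0.28 in LFA and −0.25 in NTL against control, and −0.08 and −0.09 when arrays were quantile normalized.

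Against control, 4 of the 7 tested member genes rose in LFA and 4 in NTL. In both they were the ligand Csf2 and the receptor chains Csf1r, Csf2ra and Csf2rb. Among all tested genes 2.75% were called higher in LFA and 4.36% in NTL. No member was called in SFA or in NTS by limma, where 0% of all genes were called. The unequal-variance test named in the study's methods is 1 test over all 5 groups, combined here with the 2-fold rule. It could not call a member in SFA or NTS, as fitted changes lay between −0.18 and 0.68 in SFA and between −0.55 and 0.066 in NTS. At an unadjusted p under 0.05, limma gave 1 member in SFA (Csf2rb) and 0 in NTS. Csf2 was not well above background on any control array, so the median change is given for the 6 other genes, and was 0.94 in LFA, 1.07 in NTL, 0.032 in SFA and −0.18 in NTS, against −0.24, −0.24, −0.08 and −0.07 over all tested genes. With Csf2 at its lower bound the median of the 7 genes was 0.85 in LFA and 0.51 in NTL. In each of LFA and NTL, 4 of the 7 genes, Csf2 among them, had every array above every control array, as had 5.30% and 7.31% of all genes. For Csf2 this sets detected arrays against undetected ones. In SFA and NTS no member had every array above every control array, against 0.581% and 0.613% of all genes. These comparisons share the same 4 control mice. Shares over all genes were counted only for arrays above control. Separations below control or between other groups are described without such a share.

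**Figure D1:**
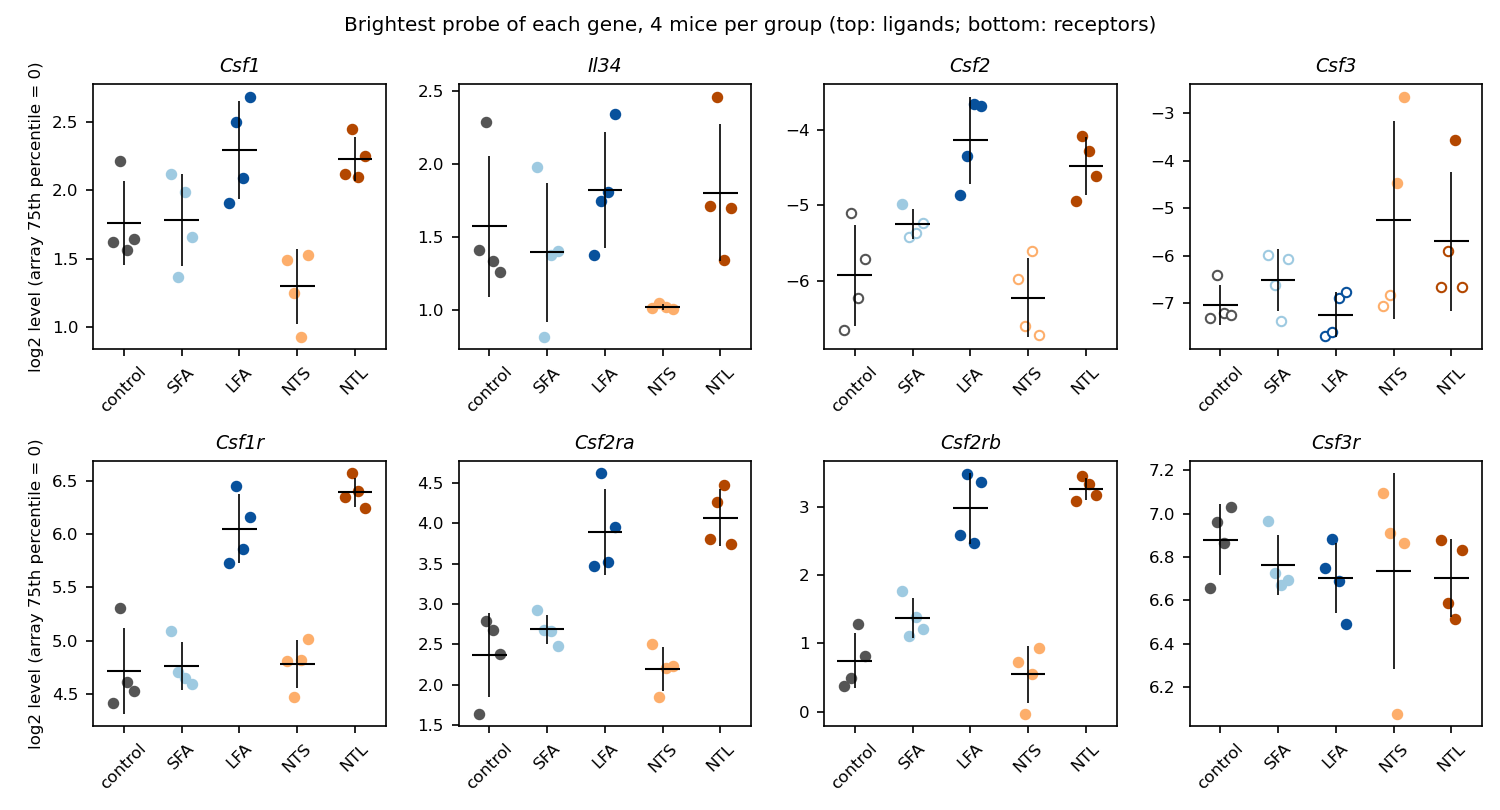
Log2 level of the brightest probe of each gene (y axis, array 75th percentile = 0, a different range in each panel) in the 5 groups (x axis). Points are mice, open where the spot was not well above background, lines are means and bars are SD (n = 4). Csf2, Csf1r, Csf2ra and Csf2rb stand higher in LFA and NTL than in control, and Csf3r lies between 6.08 and 7.09 on all arrays.

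Csf1, which supports macrophages, was measured in all groups by a probe near the 3′ end of the long transcript (base 3749, chr3:107544333-107544392, minus strand, NCBI37), printed on 10 spots. Its last 30 bases are shown beside those of a probe for another Csf1 transcript, since they read different transcripts.
Csf1, base 3749: actatttccatgctagaaaatacatatttt
Csf1, base 2256: cttgtagtctattaaaaaccccagttctat
At base 3749 the log2 levels were 1.62, 2.22, 1.57 and 1.65 in control and 2.12, 1.37, 1.99 and 1.66 in SFA. They were 1.91, 2.50, 2.09 and 2.68 in LFA. In the nanotube groups they were 1.49, 1.25, 0.93 and 1.53 in NTS and 2.12, 2.45, 2.10 and 2.25 in NTL. LFA and NTL each overlapped with control only through control replicate 2, and all NTL mice were above all NTS mice.

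By this probe Csf1 was not called in any comparison. The change was 0.53 ± 0.24 (SE) in LFA (adjusted p = 0.192, limma) and 0.47 ± 0.24 in NTL (adjusted p = 0.256). NTL exceeded NTS by 0.93 ± 0.24 with an adjusted p of 0.0235, which is 1.90-fold and short of the 2-fold limit. All 4 NTS mice were also below all control mice, by 0.46 ± 0.24 on average (adjusted p = 0.9999, limma). The share of all genes with such a separation was not counted.

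The other Csf1 transcript was read by probes at bases 2227 and 2256 (chr3:107548521-107548609, minus strand), which share 31 bases with each other and are not independent. Their changes were 0.74 ± 0.31 and 0.78 ± 0.32 in LFA (adjusted p = 0.165 and 0.151) and 0.97 ± 0.31 and 0.93 ± 0.32 in NTL (adjusted p = 0.0669 and 0.0791). NTL exceeded NTS at both, by 1.29 ± 0.31 and 1.18 ± 0.32 (adjusted p = 0.0157 and 0.0273), and these differences were called. Without control replicate 2, which was the highest control mouse at each of these probes, the rise in NTL against control was called at both, at 1.26 and 1.20 (adjusted p = 0.0158 and 0.0275). Whether the transcripts differed in their change was not tested. Another Csf1 probe, at base 179, was well above background on 2 of 20 arrays, SFA replicate 4 and LFA replicate 2, and was not tested.

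Il34, the second ligand of Csf1r, was read by 1 probe (base 1672, chr8:113265835-113265894, minus strand). Its last 30 bases are given to identify it.
Il34, base 1672: ggacttactggggcttttcagttgtgctga
The log2 levels were 1.41, 2.29, 1.33 and 1.26 in control, 1.98, 0.81, 1.38 and 1.41 in SFA, and 1.38, 1.75, 1.81 and 2.35 in LFA. They were 1.01, 1.05, 1.02 and 1.002 in NTS and 1.71, 2.46, 1.34 and 1.70 in NTL. The NTS mice lay together below all control mice, and the other groups overlapped with control. How many of all genes separate in this way was not counted.

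Il34 was not called in any comparison. The change was 0.25 ± 0.30 in LFA (adjusted p = 0.639, limma) and 0.23 ± 0.30 in NTL (adjusted p = 0.702). In NTS it was −0.55 ± 0.30 (adjusted p = 0.9999). The difference of NTL from NTS was 0.78 ± 0.30 (adjusted p = 0.116), with all 4 NTL mice above all 4 NTS mice. For both ligands of Csf1r the mean order ran from NTS at the bottom to LFA and NTL at the top, and of the steps tested in that order only the NTL against NTS step of Csf1 had an adjusted p under 0.05.

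Csf1r was read by 3 probes, and its brightest lay near the 3′ end of the transcript (base 3806). The log2 levels were 4.41, 5.30, 4.61 and 4.52 in control and 5.09, 4.70, 4.65 and 4.59 in SFA. They were 5.73, 6.45, 5.86 and 6.16 in LFA. In NTS they were 4.81, 4.47, 4.82 and 5.02, and in NTL 6.35, 6.58, 6.40 and 6.25. Every LFA and every NTL mouse was above every mouse of the other 3 groups, and the other 3 groups overlapped.

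Csf1r rose by 1.34 ± 0.23 in LFA (2.53-fold, adjusted p = 0.00452, limma) and by 1.68 ± 0.23 in NTL (3.21-fold, adjusted p = 0.000329). The difference between long and short fibers was close in size, at 1.29 ± 0.23 for asbestos (adjusted p = 0.00902) and 1.62 ± 0.23 for nanotubes (adjusted p = 0.000329). SFA and NTS differed from control by 0.05 ± 0.23 and 0.07 ± 0.23. The group means in order were control at 4.71, SFA at 4.76, NTS at 4.78, LFA at 6.05 and NTL at 6.39, and LFA did not differ from NTL beyond the spread (−0.34 ± 0.23, adjusted p = 0.9999). Within a slide, LFA exceeded control by 1.49, 0.87 and 1.84 and NTL by 1.49 and 1.79.

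The upstream Csf1r probes, at bases 1841 and 2871, were not called in any comparison and ran differently along the arrays. At base 2871 the log2 levels were 0.04, −2.55, −0.12 and 0.68 in control, −2.64, −1.75, −0.99 and 0.25 in SFA and 1.36, 1.26, −2.08 and 0.47 in LFA. They were −0.01, 0.06, 0.08 and −2.07 in NTS and 2.09, −0.73, 1.38 and 1.58 in NTL. The mice of a group were spread widely, with SDs of 1.06 to 1.61, and the groups overlapped. The change was 0.74 ± 0.87 in LFA (adjusted p = 0.619, limma) and 1.57 ± 0.87 in NTL (adjusted p = 0.288), and at base 1841 it was −0.24 ± 0.46 (adjusted p = 0.767) and 0.62 ± 0.46 (adjusted p = 0.459). Averaging the 3 probes gave changes of 0.61 in LFA (adjusted p = 0.356) and 1.29 in NTL (adjusted p = 0.0528), so the call of Csf1r rests on the probe at base 3806.

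A measure of the balance between the 5′ and 3′ signal was therefore set beside these probes, after the values had been seen. For each array it is the mean, over 1918 transcripts with probes at least 1000 bases apart, of the upstream minus the downstream log2 level, centered on 0, with the members left out. It ran from −0.66 to 0.62, with medians of 0.28 in control, −0.19 in SFA, −0.17 in LFA, 0.48 in NTS and 0.06 in NTL. The difference between Csf1r at base 2871 and at base 3806 followed it over the 20 arrays (Pearson's r = 0.88, Spearman's rho = 0.83, permutation p adjusted over 4 relations 4e-05 and 5.3e-05). The value was r = 0.83 without the 2 arrays farthest from the median, and r = 0.88 and 0.93 within the slides of 8 and 7 arrays. For base 1841 r was 0.82 and rho 0.84 (adjusted permutation p = 4e-05 and 5.3e-05), with 0.80 without the 2 arrays and 0.87 and 0.79 within slides. With the measure as a covariate in limma, base 2871 rose by 1.75 in LFA (adjusted p = 0.0168) and by 2.13 in NTL (adjusted p = 0.00242), while base 1841 gave 0.23 in LFA (adjusted p = 0.618) and 0.88 in NTL (adjusted p = 0.0364), short of 2-fold. The part of RNA quality in this was not tested.

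**Figure D2:**
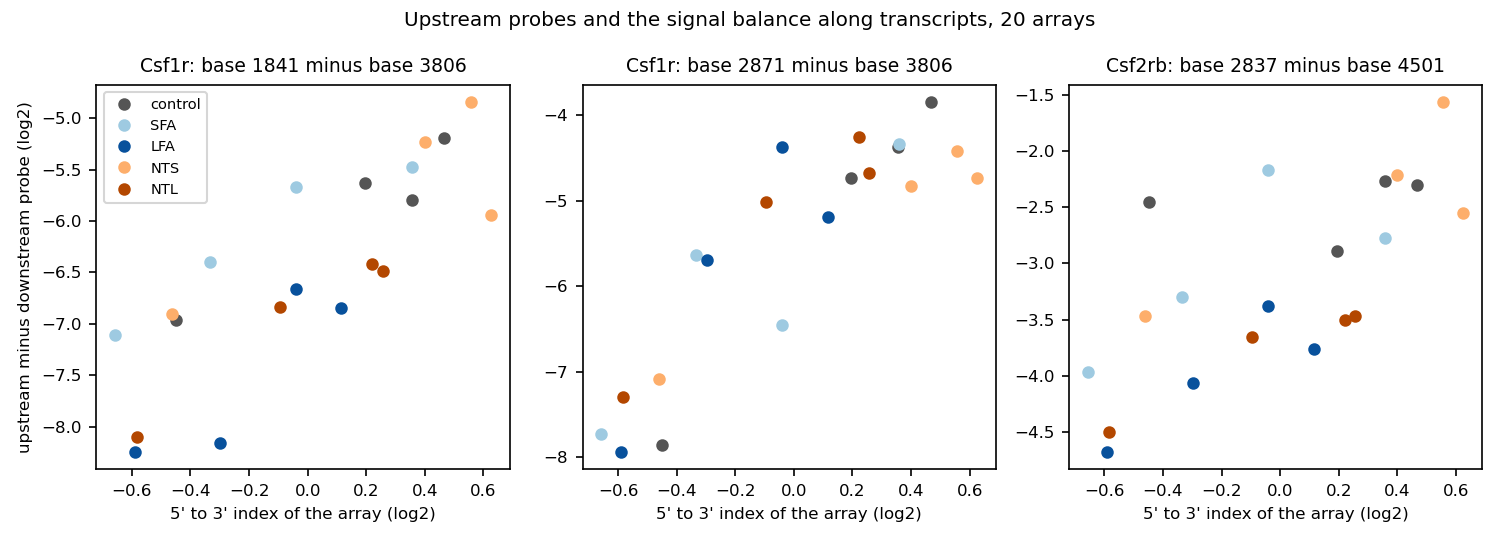
Log2 difference between an upstream and the brightest probe of Csf1r (left and center) and Csf2rb (right) on the y axis, against the 5′ to 3′ signal measure of the array on the x axis (log2), for 20 arrays colored by group. Arrays with a low measure have a lower upstream probe in all 3 panels, with r of 0.82, 0.88 and 0.71.

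Csf2 was read by 1 probe (base 852, chr11, minus strand), printed on 10 spots, and was the only ligand called by its brightest probe. Its last 30 bases are shown because the finding on Csf2 rests on this probe alone.
Csf2, base 852: gcaagacaaacgagagatattttctactga
It was well above background on 0 of 4 control arrays, 1 of 4 SFA arrays, 4 of 4 LFA arrays, 0 of 4 NTS arrays and 4 of 4 NTL arrays. The log2 levels were −6.66, −5.10, −6.23 and −5.71 in control, −4.98, −5.42, −5.37 and −5.23 in SFA and −4.87, −4.35, −3.65 and −3.69 in LFA. They were −5.97, −6.60, −5.61 and −6.72 in NTS and −4.94, −4.07, −4.27 and −4.62 in NTL. Every LFA and NTL mouse was above every mouse of the other groups, and the control and NTS values give only an upper limit.

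A fold change of Csf2 is therefore a lower bound, set by the dimmest probes still well above background on the control arrays. Csf2 was at least 1.80-fold higher in LFA than in control (means −4.14 ± 0.58 and −5.93 ± 0.67, SD, adjusted p = 0.0102 in limma). It was at least 1.43-fold higher in NTL (−4.48 ± 0.38, adjusted p = 0.0187) and at least 1.38-fold higher in NTL than in NTS (−6.22 ± 0.53, adjusted p = 0.00481). These bounds fall short of 2-fold, so the calls rest on fitted values of arrays not well above background. LFA was not called against SFA (adjusted p = 0.189), where 1 of 4 arrays was well above background, and the size of that difference is not given. With another background correction, normexp with an offset of 50, the changes were 0.12 in LFA (adjusted p = 0.7504, limma) and −0.061 in NTL (adjusted p = 0.879). An offset shrinks differences between dim spots, but its part in these values was not tested. Both calls against control were also lost when only the groups compared were fitted (adjusted p = 0.0648 in LFA and 0.0529 in NTL). The call in NTL was lost as well without control replicate 1 (1.21, adjusted p = 0.0613) or without NTL replicate 2 (1.32, adjusted p = 0.0548).

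Csf2ra, the chain that binds Csf2, was read by 1 probe (base 1758, chr19:61300336-61300395, minus strand).
Csf2ra, base 1758: agttcgatagtcagtagtactagaagaatc
The log2 levels were 1.64, 2.79, 2.68 and 2.37 in control, 2.92, 2.68, 2.66 and 2.48 in SFA and 3.47, 4.62, 3.52 and 3.95 in LFA. They were 2.51, 1.85, 2.21 and 2.24 in NTS and 3.81, 4.26, 4.48 and 3.74 in NTL. The long fiber groups again stood above all other mice, with SFA and NTS within or close to the control range.

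Csf2ra rose by 1.52 ± 0.30 in LFA (2.87-fold, adjusted p = 0.00912, limma) and by 1.70 ± 0.30 in NTL (3.25-fold, adjusted p = 0.00198). NTL exceeded NTS by 1.87 ± 0.30 (3.66-fold, adjusted p = 0.000661). LFA exceeded SFA by 1.20 ± 0.30 with an adjusted p of 0.0565 (limma), so this difference was not called. Of 31 other settings, 9 called it, with adjusted p from 0.0204 to 0.0476. The other 22 did not, with adjusted p up to 0.232. Among these 22 are the authors' group means, which have no test. In order the means were NTS at 2.20, control at 2.37, SFA at 2.69, LFA at 3.89 and NTL at 4.07, and LFA and NTL differed by −0.18 ± 0.30 (adjusted p = 0.9999).

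Of the members, 4 have a promoter in the RefSeq table used here, and of the genes called these are Csf2 and Csf2ra. The 250 bases before the Csf2ra start (GRCm38.p6, chr19:61228419-61228668, minus strand) are shown as the promoter of a receptor chain that rose with its partner. Capitals mark GAGGAA, the purine-rich core that the myeloid factor PU.1 is known to bind, searched on both strands.
Csf2ra, upstream: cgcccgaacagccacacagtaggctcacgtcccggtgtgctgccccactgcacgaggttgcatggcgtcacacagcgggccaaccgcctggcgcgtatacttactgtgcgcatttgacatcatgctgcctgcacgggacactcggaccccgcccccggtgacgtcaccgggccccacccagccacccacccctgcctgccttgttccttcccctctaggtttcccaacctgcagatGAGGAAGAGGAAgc
The motif occurred 2 times side by side just before the Csf2ra start, 1 time in the same window of Csf3r and 0 times in those of Csf1 and Csf2. Of 32851 promoters in the table, 23.3% hold it at least once. A match describes the sequence and was not set against any binding data. Sfpi1, the gene of PU.1, was not called in LFA (0.84 ± 0.76, adjusted p = 0.517, limma). Its change in NTL is not given here.

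Csf2rb, the signaling chain shared with the receptors of interleukin 3 and interleukin 5, had the largest change of the 7 tested genes in LFA and in NTL. At its brightest probe (base 4501, chr15:78181168-78181227, plus strand) the log2 levels were 0.38, 0.50, 1.29 and 0.81 in control and 1.76, 1.11, 1.39 and 1.22 in SFA. They were 2.59, 3.48, 2.47 and 3.36 in LFA. In NTS they were 0.73, −0.03, 0.56 and 0.94, and in NTL 3.08, 3.45, 3.33 and 3.17. The LFA and NTL mice stood above all others, and 2 of the 4 SFA mice stood above the highest control mouse.

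Csf2rb rose by 2.23 ± 0.29 in LFA (4.70-fold, adjusted p = 0.000381, limma) and by 2.51 ± 0.29 in NTL (5.71-fold, adjusted p = 6.65e-05). LFA exceeded SFA by 1.61 ± 0.29 (3.05-fold, adjusted p = 0.00784) and NTL exceeded NTS by 2.71 ± 0.29 (6.54-fold, adjusted p = 2.05e-05). The change in SFA was 0.63 ± 0.29 (adjusted p = 0.999, limma), and in NTS it was −0.20 ± 0.29. The length effect, which for nanotubes includes the difference in source, was larger for nanotubes than for asbestos by 1.10 ± 0.40. This did not pass adjustment (adjusted p = 0.9999, limma), nor did it for any other tested member. Within a slide, LFA exceeded control by 2.10, 2.15 and 2.19 and NTL by 2.64 and 2.03.

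The second Csf2rb probe, upstream at base 2837 (chr15:78179504-78179563), gave smaller changes. It rose by 1.21 ± 0.37 in NTL (adjusted p = 0.0497, limma), a call lost in 15 of the 20 fits that left out an array, and changed by 0.74 ± 0.37 in LFA (adjusted p = 0.224). NTL exceeded NTS by 1.38 ± 0.37 (adjusted p = 0.0255). Its difference from base 4501 also followed the 5′ to 3′ measure (r = 0.71, rho = 0.68, adjusted permutation p = 0.00071 and 0.0011, r = 0.62 without the 2 outermost arrays, 0.62 and 0.74 within slides). With the measure as a covariate the change in LFA was 1.05 (adjusted p = 0.0295).

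Csf2rb has a near copy beside it, Csf2rb2, the interleukin 3 specific beta chain of the mouse, at chr15:78113126-78113185 on the minus strand. The probes at base 4501 of Csf2rb and base 4373 of Csf2rb2 lie over corresponding sequence, with 31 of 42 aligned bases identical. The 30 most alike are shown with the differing bases in capitals.
Csf2rb, base 4501: ggcagatcaaAtgtCccttggtctCtgttc
Csf2rb2, base 4373: ggcagatcaaGtgtTccttggtctAtgttc
Counted from the 5′ end of this stretch, and with the Csf2rb base first, they differ by A11G, C15T and C25A. Csf2rb2 rose by 2.21 ± 0.30 in LFA and 2.79 ± 0.30 in NTL (adjusted p = 0.000658 and 4.96e-05, limma). Its probe at base 3402, whose best alignment with the upstream Csf2rb probe has 15 of 31 bases identical, gave 1.79 ± 0.55 in LFA (adjusted p = 0.0674) and 2.80 ± 0.55 in NTL (adjusted p = 0.00476). How much of either signal comes from the other transcript was not tested, so the split between these paralogs is uncertain.

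**Figure D3:**
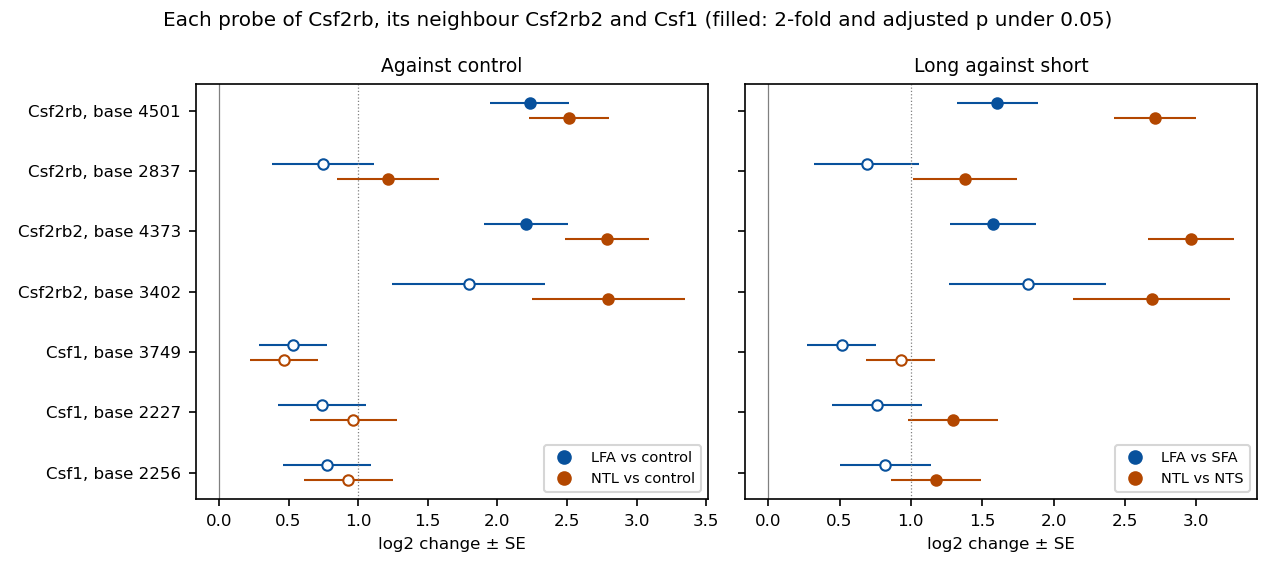
Log2 change ± SE (x axis) of each tested probe of Csf2rb, Csf2rb2 and Csf1 (y axis, gene and base in the transcript), against control on the left and long against short fibers on the right, filled where called. At base 4501 Csf2rb changed by 2.23 in LFA and 2.51 in NTL, and at base 2837 by 0.74 and 1.21.

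Csf3 could not be tested. Its probe (base 1033, chr11:98564614-98564673, plus strand) was well above background on 3 of 20 arrays. These were NTS replicate 3 at −4.46, NTS replicate 4 at −2.65 and NTL replicate 3 at −3.57. The control arrays read −7.31, −6.41, −7.20 and −7.24, none of them well above background, as were none of the SFA and LFA arrays. Csf3 was therefore not measured with any consistency within a group.

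Csf3r gave a level that hardly moved, between 6.08 and 7.09 on all 20 arrays. The log2 levels were 6.66, 6.96, 6.86 and 7.03 in control, 6.75, 6.88, 6.69 and 6.49 in LFA and 6.88, 6.59, 6.51 and 6.83 in NTL. The changes were −0.18 ± 0.22 in LFA (adjusted p = 0.644, limma) and −0.18 ± 0.22 in NTL (adjusted p = 0.683), and all groups overlapped with control. The sign turned to 0.20 and 0.34 when arrays were quantile normalized.

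The 1 probe for Csf3r (base 3165, chr4:125721478-125721537, plus strand) ends in a stretch that resembles the B1 short interspersed repeat, a sequence found in many mouse transcripts. Its last 30 bases are shown, with the final 18 in capitals.
Csf3r, base 3165: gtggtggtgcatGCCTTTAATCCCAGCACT
The 18 capitals also occur in 4 probes of other gene names on the array, on either strand, and the final 12 bases in 14. The longest run that the Csf3r probe shares with a probe of another name has 30 bases, whereas the other 13 member probes share at most 16. Part or all of the signal at this probe can come from other transcripts, and its steady level cannot be read as that of Csf3r.

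**Figure D4:**
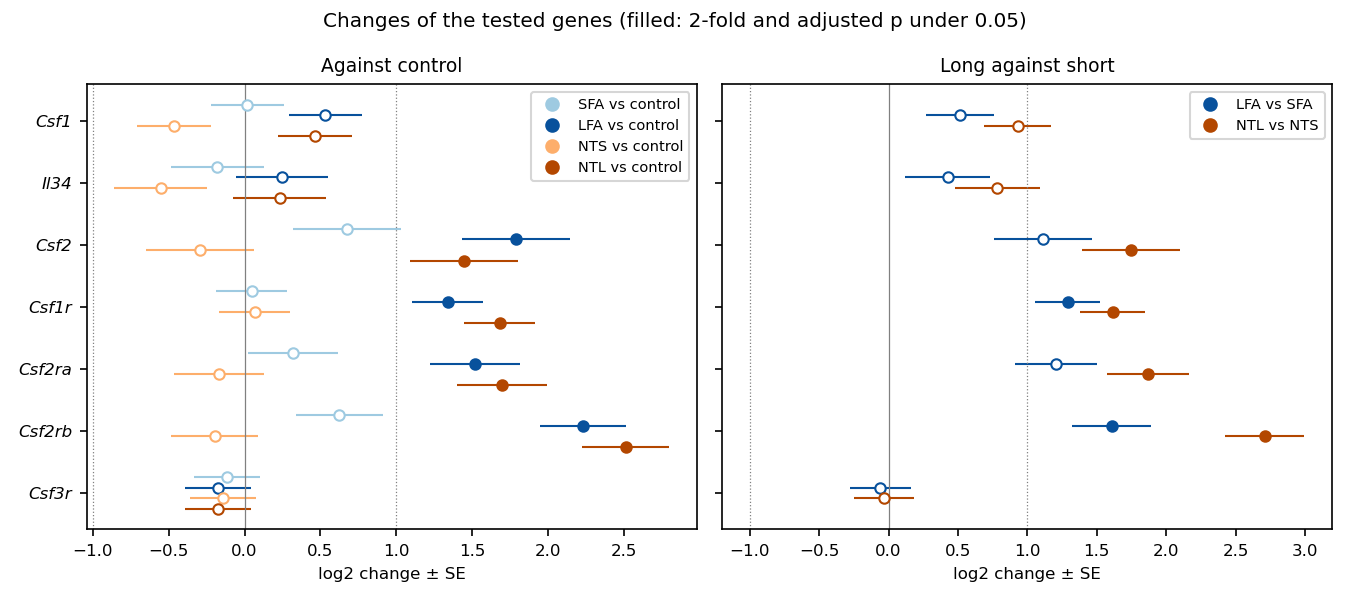
Log2 change ± SE (x axis) of the 7 tested genes by their brightest probe (y axis), against control on the left and long against short fibers on the right, filled where called. Csf2, Csf1r, Csf2ra and Csf2rb are filled in LFA and NTL, and no gene is filled in SFA or NTS. The points of Csf2 are fitted values against groups with 0 or 1 of 4 arrays well above background, and are not measured sizes.

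Taking length within each material, LFA exceeded SFA in 2 member genes, Csf1r and Csf2rb, and 1.30% of all tested genes were called higher. NTL exceeded NTS in 4, the same genes that were called against control, with 5.75% of all genes higher. Of these members, Csf2 was well above background on 0 of 4 NTS arrays. No member was called between LFA and NTL by limma, nor at an unadjusted p under 0.05, and the 7 differences lay between −0.34 and 0.34, at doses that differed. When each comparison was fitted on its own 8 arrays in place of all 20, 1 gene was called in LFA against control (Csf2rb) and 0 in LFA against SFA.

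Part of the macrophage markers rose where the receptor chains rose. Of the 11 markers, Cd68, Emr1, Mrc1, Cd14, Lyz1, Fcgr1 and Aif1, which are 7, rose in both LFA and NTL, and 0 were called in SFA and NTS, with median changes over all 11 of 1.76 and 2.25 in the long fiber groups. The other 4 were not called. Itgam changed by −0.80 in LFA and −0.60 in NTL (adjusted p = 0.363 and 0.537, limma), and Cd163 by −1.10 and 0.026 (adjusted p = 0.407 and 0.990). Lyz2 changed by 1.76 and 2.34 (adjusted p = 0.162 and 0.0598), and Mertk by 0.83 and 0.98 (adjusted p = 0.101 and 0.0447). The summed linear level of the list was 83.7 to 143 in control, 97.0 to 151 in SFA, 151 to 237 in LFA, 62.2 to 139 in NTS and 206 to 271 in NTL, in multiples of the array's 75th percentile. These are whole-tissue RNAs, in which a change in the number of cells and a change in RNA per cell cannot be told apart. The part of the macrophage markers in the rise of Csf1r, Csf2ra and Csf2rb was not tested.

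The genes with the pattern most like each called member were sought among 15637 tested genes, by the root mean square difference of the centered log2 levels over the 20 arrays. For Csf1r they were B4galt5, a galactosyltransferase, at 0.203, the lysosomal protease Lgmn at 0.209 and the myeloid lectin Cd33 at 0.217. For Csf2ra they were the immune receptor Nfam1 at 0.245, Cd33 at 0.246 and Cybb, the catalytic subunit of the phagocyte oxidase, at 0.253. For Csf2rb they were Csf2rb2 at 0.219, Emb at 0.303 and Cyp1b1 at 0.314. For Csf2, which was well above background on 9 of the 20 arrays, so that the distances rest mostly on values near background, they were Snx20 at 0.356, the inflammasome adaptor Pycard at 0.380 and Alox5, which starts leukotriene synthesis, at 0.393.

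Genes that relay the signal of these receptors rose in part. Of 30 signal transducers, all of them tested, 11 rose in LFA and 13 in NTL and none fell, with median changes of 0.73 and 1.11. They included the Src family kinase Fgr at 1.86 ± 0.39 in LFA and 2.06 ± 0.39 in NTL (adjusted p = 0.0135 and 0.00344, limma) and the adaptor Tyrobp at 1.85 ± 0.36 and 1.99 ± 0.36 (adjusted p = 0.00836 and 0.00241). The phosphoinositide kinase subunit Pik3cg rose by 1.78 ± 0.43 and 2.24 ± 0.43 (adjusted p = 0.0290 and 0.00423), and Socs3, an inhibitor of cytokine signaling and of the Csf3 receptor, by 1.55 ± 0.31 and 1.48 ± 0.31 (adjusted p = 0.00987 and 0.00672). By limma no gene of this list was called in SFA or NTS. Among all tested genes 2.75% were called higher in LFA and 4.36% in NTL, for this list and the others. In LFA, Jak2 (0.37 ± 0.35, adjusted p = 0.531, limma) and Stat5a (−0.12 ± 0.46, adjusted p = 0.885) were not called. Nor were Stat5b (−0.26 ± 0.24, adjusted p = 0.522) and Cish (−0.10 ± 0.32, adjusted p = 0.866). The changes of Jak2, Stat5a, Stat5b and Cish in NTL are not given here.

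Some cytokines on a list written as possible inducers of the colony stimulating factors rose. Whether each of them induces these factors was not tested. Of 13 on the list 10 were tested, and 4 rose in LFA and 5 in NTL, while 6 and 5 of the 10 were not called, among them Il18, Il33, Ifng and Lta in both. Il1b rose by 3.74 ± 0.72 and 3.38 ± 0.72 (adjusted p = 0.00825 and 0.00796, limma). Il6 rose by 3.70 ± 0.50 and 4.06 ± 0.50 (adjusted p = 0.000629 and 0.000135), with 1 of 4 control arrays well above background. Tnfsf11 was well above background on 0 of 4 control arrays, and its rise came to at least 3.34-fold (LFA) and at least 3.596-fold (NTL) (adjusted p = 0.0151 and 0.00639). Il13, on 0 of 4 control, 2 of 4 LFA and 3 of 4 NTL arrays, was called higher in NTL (adjusted p = 0.00372, size not given). It was not called in LFA (adjusted p = 0.0991).

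Of 20 transcription factors of the myeloid lineages, 3 rose in LFA and 6 in NTL. Tfec, well above background on 0 of 4 control, 3 of 4 LFA and 4 of 4 NTL arrays, was called in both (adjusted p = 0.0247 and 0.00867, limma). It was at least 6.07-fold higher in NTL, and the size in LFA is not given. Egr2 rose by 1.47 ± 0.35 and 2.002 ± 0.35 (adjusted p = 0.0279 and 0.00225) and Irf4 by 1.40 ± 0.27 and 1.65 ± 0.27 (adjusted p = 0.00849 and 0.00125). Runx1 rose in NTL by 1.42 ± 0.35 (adjusted p = 0.0195), with 1.09 ± 0.35 in LFA (adjusted p = 0.0785). Of the 12 tested ligands and receptor chains of the same families, Csf2rb2 alone rose in LFA, whereas in NTL Csf2rb2 and Flt3 rose (Flt3 by 1.04 ± 0.31, adjusted p = 0.0454) and Ptprz1, a phosphatase that also binds Il34, fell by 1.52 ± 0.39 (adjusted p = 0.0234). The median change of these 12 genes was 0.51 in LFA and 0.41 in NTL.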

How the data were processed

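RNA of 20 diaphragms was labeled with Cy3 by the authors and hybridized to 60K mouse arrays, 1 mouse per array. The deposited intensity per spot is the background-subtracted signal of the scanner software, Agilent Feature Extraction 10.7.3.1. The authors also deposited log2 values normalized in GeneSpring, held as 1 mean per group, which served as an alternative without a test; their fold change columns were not used.

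From the scanner intensities, outlier spots, 92 to 204 per array, were dropped, and log2 values were set relative to each array's 75th percentile and averaged per probe. A probe was tested when well above background on at least 4 of 20 arrays. One model with 5 group means was fitted in limma 3.58.1 (R 4.3.3) to all arrays, with Benjamini-Hochberg adjustment, and was tested on simulated data. Other steps used Python 3.11.15. The arrays lay on 3 slides with 2 scan dates, and slide 3 alone had the second date. NTL had 1 array on slide 2 and 3 on slide 3, whereas NTS had 2 on slide 1 and 2 on slide 2. The difference of NTL from NTS is thus largely confounded with slide and scan date. SFA had 2 arrays on slide 2 and 2 on slide 3, and control and LFA were on all 3 slides. The number of arrays, 4 per group, limits the precision. Groups came from the labels.

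All members were named. Of the pathway lists, the genes called in LFA or NTL were named, at most 4 per list, with the largest of the smaller of both changes. For each called member the 3 most similar genes were named. The members and lists were chosen with earlier results of these data known. Alternatives covered quantile scaling, normexp (offset 50), other filters, probe averages, slide, scan date and replicate blocks, smaller fits, the methods' unequal-variance test and leaving out each array. The 5′ to 3′ covariate was added after the data were seen. Probes were placed as the array files give them, in build NCBI37, and the promoter sequences are those of RefSeq.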

Additional observations from a re-analysis of the deposited data

Results flagged for a closer look

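Of 70 groups of 4 mice over the 14 member probes, 6 held a mouse apart from the others by a test that marks about 1 group in 20 by chance. In control, replicate 2 was the highest for Csf1 at base 3749 (2.22, others 1.57 to 1.65), for Il34 (2.29, others 1.26 to 1.41) and for Csf3 (−6.41, not well above background, others −7.31 to −7.20). The same control array had the lowest share of spots above background, 53.0%. LFA replicate 2 was the highest for Csf1 at base 179 (−4.40, others −7.66 to −7.25). NTS replicate 4 was the lowest for Csf1r at base 2871 (−2.07, others −0.01 to 0.08), and NTL replicate 2 was the lowest for Csf2rb at base 2837 (log2 level −1.05, others −0.42 to −0.30). Both of these arrays were the lowest of their group in the 5′ to 3′ signal measure, at −0.46 and −0.58.

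Csf3, which was not tested, was well above background on NTS replicate 3 (−4.46), NTS replicate 4 (−2.65) and NTL replicate 3 (−3.57) and on 0 of 4 control arrays.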

How the results depend on the processing

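Of 2021 recomputed changes of single probes, 1905 were counted as unchanged. In a refit this means the same direction and side of the threshold. The authors' group means have no test, and there it means a value within the SD between mice. A change of sign there was counted only for called results. Of the rest, 65 changed sign, 2 of them (Csf2 in NTL against control and against NTS, with normexp) losing the call as well, 33 others lost the call and 18 gained it. The counts of called members stayed within 1.5 times under every setting but 1. Fitting only the groups compared gave 1 for LFA against control and 0 for LFA against SFA, with fewer arrays to estimate the spread. Leaving out 1 array at a time gave 4 to 4 genes in LFA, 3 to 4 in NTL, 0 to 0 in SFA and NTS, 2 to 3 for LFA against SFA, 4 to 5 for NTL against NTS and 0 to 0 for LFA against NTL. The methods' unequal-variance test gave the same counts against control. It is 1 test over all 5 groups with the 2-fold rule added, so it has no separate p for LFA and NTL. Csf2 depends on the background correction and on the arrays fitted, and Csf1r on the choice of its probe, as given above. The number of arrays and, for Csf2 and Csf3, a signal near background limit the rest; other causes were not tested.

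With the replicate number as a block, every count of called members was unchanged (4 in LFA), and only the Csf2rb probe at base 2837 lost its call in NTL (1.21, adjusted p = 0.0711). Arrays of the same number correlated at a median of −0.09 in their deviations from the group means (−0.68 to 0.69, 40 pairs), against −0.01 for other numbers, so the numbers do not pair the mice.

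Changes of sign in the refits, all in results that were not called except those of Csf2 with normexp, were as follows. With normexp Csf2 gave −0.061 for NTL against control, 0.11 for NTS, −0.026 for LFA against SFA, −0.17 for NTL against NTS and −0.14 for the difference of length effects. With normexp Csf3r gave 0.16 for NTL against NTS and −0.070 for LFA against NTL. With quantile normalization Csf3r gave 0.20 in LFA, 0.34 in NTL, 0.084 in SFA, 0.11 for LFA against SFA, 0.47 for NTL against NTS and −0.14 for LFA against NTL, where Csf1 gave −0.022 and Il34 −0.060. With slide as a block Csf3r gave 0.037 for LFA against SFA and −0.11 for length effects, and Il34 −0.037 for LFA against NTL. With scan date as a block Csf3r gave 0.0086 for NTL against NTS and −0.027 for LFA against NTL, and Il34 −0.018. Averaging probes gave Csf1 −0.015 and Csf1r −0.32 in SFA and Csf1 −0.10 for LFA against NTL. With the 5′ to 3′ covariate Csf1 gave −0.11 and Csf1r −0.073 in SFA, Csf1r at base 1841 0.23 in LFA, Il34 −0.070 and Csf3r −0.0091 for LFA against NTL.

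Leaving out 1 array changed the sign only of small changes. The ranges were −0.59 to 0.075 for Csf1r at base 1841 in LFA, and in SFA −0.093 to 0.17 for Csf1, −0.37 to 0.061 for Il34 and −0.066 to 0.24 for Csf1r. In NTS they were −0.034 to 0.26 for Csf1r and −0.26 to 0.077 for Csf3r. For LFA against NTL they were −0.063 to 0.20 for Csf1, −0.16 to 0.24 for Il34 and −0.062 to 0.071 for Csf3r. Csf3r ranged from −0.12 to 0.010 for LFA against SFA and from −0.25 to 0.086 for NTL against NTS. The difference of length effects ranged from −0.19 to 0.15 for Csf3r, 0.29 to 0.55 for Csf1, 0.14 to 0.55 for Il34, 0.21 to 0.46 for Csf1r, 0.39 to 0.84 for Csf2, 0.53 to 0.91 for Csf2ra and 0.91 to 1.27 for Csf2rb.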

Other observations

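Markers of other cell types were counted in the same fit. Of 11 granulocyte markers, cells on which Csf3 acts, 1 rose in LFA and 0 in NTL, and the summed linear level was 12.2 to 98.5 in control, 40.0 to 85.2 in LFA and 17.8 to 52.7 in NTL. Fibroblast markers rose in 1 of 6 in LFA and 4 of 6 in NTL, and osteoclast-type markers, of cells that need Csf1, in 1 of 7 and 2 of 7. Skeletal muscle markers fell in 2 of 7 and 3 of 7, and adipocyte markers in 1 of 4 and 3 of 4. Of all 36920 tested probes, 634 were called lower in LFA and 1174 in NTL. None was called among the tested markers of eosinophils and mast cells (6), T and NK cells (7), B cells (5), mesothelium (7), endothelium (5), lung (1) and liver (4) in LFA or NTL against control by limma. The liver markers differed widely within groups, with a summed linear level of 1.07 to 141 in control and 1.01 to 2023 in NTS.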
